A study of Mus musculus with 16 samples.

Results

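H3K9me3 and H3K9me2 were compared at the places in the genome of WT small intestinal crypts where an H3K9me3 peak and an H3K9me2 region overlapped by at least 1 bp. Each such overlap was treated as a pair, and 145136 pairs joined 144826 of the 212313 H3K9me3 peaks (68.2%) to 26777 of the 47065 H3K9me2 regions (56.9%). The peak lay wholly inside the region in 124720 pairs (85.9%). Of all pairs, 107252 (73.9%) had at least 20 reads in the WT input of each mark and were tested. The other 37884 pairs had fewer input reads and were left out of every comparison. Tested pairs joined 107004 peaks, of a median 1950 bp, to 23602 regions, of a median 15600 bp, so that the median region was paired with 3 peaks, 7398 regions with a single peak, and the richest region with 94. Pairs that share a region share its H3K9me2 value and are not independent.

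The crypts were isolated whole from the small intestine of male C57BL/6 mice whose ages are not given in the sources used here, so that cells other than epithelium can be present. Wild type (WT) crypts gave 3 ChIP libraries per mark and 1 WT input of each mark (sonicated chromatin without antibody). The KO group carried a deletion of the chromatin remodeler gene Smarcad1 made by Cre recombinase under the Villin promoter, which is active in the intestinal epithelium and not in the other cells of a crypt isolate. KO crypts likewise gave 3 libraries and 1 KO input per mark, and they were used only as libraries in which classes set in WT could be looked at again. Each mark had its own antibody (ab1220 for H3K9me2, ab8898 for H3K9me3), its own libraries and its own peak calling, so that mark, antibody and library series cannot be told apart. The labels do not say whether equally numbered libraries of both marks came from the same mouse, and p-values measure only the spread between these libraries.

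Methylation of lysine 9 on histone H3 marks repressed chromatin. H3K9me2 is laid down mainly by the methyltransferases G9a and GLP, often over broad domains, while H3K9me3 is laid down by the Suv39h enzymes and by Setdb1, and is bound by HP1. Setdb1 is brought to retroelements and to clustered zinc finger genes by KRAB zinc finger proteins and their partner Trim28, and the exons of such genes that encode the DNA-binding fingers are known to carry H3K9me3.

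Levels are given as the centred log2 ratio of a library over the WT input of its mark (the KO input for KO libraries), with the median of all peaks or regions of that mark at 0. H3K9me3 reads in peaks, rebuilt from the deposited log2 values, numbered from 9709416 to 11516848 in the WT libraries, and H3K9me2 reads in regions from 20012262 to 28985859. The inputs were shallower, with 8838386 reads over H3K9me3 peaks and 11716581 over H3K9me2 regions. The median tested peak held 42 input reads and the median tested region 222. Because the 3 WT libraries of a mark share 1 input without a replicate, counting error of that input moves all 3 ratios together. The difference between the marks was therefore tested both with limma on the ratios and with an edgeR interaction model in which the inputs were libraries of their own.

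The sequences of the peaks described first are shown from the RefSeq GRCm38 genome, the build of the files, to show the DNA at the centre of these H3K9me3 peaks. They are the central 300 bases of the peak on the plus strand, with CG dinucleotides in capitals. The peak that the deposited table assigns to Chd1 and the peak at Zfp729b stand for pairs higher in H3K9me3, the peak at Vmn2r22 for pairs higher in H3K9me2, and the peak at Abhd12b for pairs with both marks high.
Chd1 as deposited, chr17:17043151-17043450, no gene in GENCODE vM21: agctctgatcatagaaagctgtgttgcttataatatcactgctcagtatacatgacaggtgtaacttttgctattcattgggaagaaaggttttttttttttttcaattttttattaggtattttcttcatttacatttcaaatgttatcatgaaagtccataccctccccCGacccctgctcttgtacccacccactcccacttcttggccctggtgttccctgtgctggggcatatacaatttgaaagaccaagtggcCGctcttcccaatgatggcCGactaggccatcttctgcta
Zfp729b, chr13:67592776-67593075, coding exon: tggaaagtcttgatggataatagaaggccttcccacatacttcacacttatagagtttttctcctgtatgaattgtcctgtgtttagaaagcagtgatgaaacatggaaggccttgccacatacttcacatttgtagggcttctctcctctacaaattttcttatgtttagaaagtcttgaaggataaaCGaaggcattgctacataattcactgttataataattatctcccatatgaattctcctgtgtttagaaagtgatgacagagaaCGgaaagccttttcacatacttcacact
Vmn2r22, chr6:123644101-123644400, intron: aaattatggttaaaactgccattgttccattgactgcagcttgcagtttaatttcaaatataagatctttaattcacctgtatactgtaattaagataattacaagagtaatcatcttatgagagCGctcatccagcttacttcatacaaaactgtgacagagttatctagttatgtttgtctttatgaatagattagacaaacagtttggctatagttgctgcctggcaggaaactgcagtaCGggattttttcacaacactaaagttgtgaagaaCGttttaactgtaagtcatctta
Abhd12b, chr12:70184326-70184625, no gene in these 300 bases: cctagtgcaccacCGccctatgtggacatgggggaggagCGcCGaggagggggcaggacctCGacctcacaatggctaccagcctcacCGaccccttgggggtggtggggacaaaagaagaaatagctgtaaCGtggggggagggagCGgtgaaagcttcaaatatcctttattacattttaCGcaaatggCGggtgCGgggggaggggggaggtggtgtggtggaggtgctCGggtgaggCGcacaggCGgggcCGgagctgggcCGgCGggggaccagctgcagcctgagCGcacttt
The windows at Chd1, Zfp729b and Abhd12b lie in the part of the peak outside the H3K9me2 region of the pair, so that the H3K9me2 value was not measured on these bases. The window at Abhd12b held 17 CG dinucleotides and 63.7% G and C, whereas the other windows held 2 or 3 CG dinucleotides and 33.7% to 42% G and C. Repeats marked in the genome sequence filled 99% of the Vmn2r22 window and 69.7% of the Chd1 window, and 6.67% of the Zfp729b window.

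A further pair of stretches shows the repeated unit of zinc finger genes by which a group of peaks is described later. The capitals mark the codons of the conserved linker peptide between adjacent C2H2 zinc fingers (threonine, glycine, glutamate, lysine, proline), and both stretches lie on the minus strand within a coding exon.
Zfp729b, chr13:67592576-67592758: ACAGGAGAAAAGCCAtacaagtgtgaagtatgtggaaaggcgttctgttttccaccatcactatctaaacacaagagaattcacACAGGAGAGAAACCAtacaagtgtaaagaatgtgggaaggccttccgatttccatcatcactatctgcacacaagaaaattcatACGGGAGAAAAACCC
Zfp37, chr4:62191935-62192117: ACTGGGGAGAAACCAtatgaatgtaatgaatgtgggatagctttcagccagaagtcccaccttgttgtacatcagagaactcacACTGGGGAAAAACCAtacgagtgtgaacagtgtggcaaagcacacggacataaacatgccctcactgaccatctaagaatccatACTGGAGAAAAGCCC
In both stretches the linkers recur every 84 bases, the length of 1 finger with its linker. Matches to the linker codons, counted on both strands and without overlap between matches, occurred in 420 of the 107004 tested peaks, which made up 0.402% of tested pairs.

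Over all tested pairs H3K9me3 varied more than H3K9me2, and the levels of the marks were weakly correlated. The WT mean of H3K9me3 ran from -0.47 at the 5th percentile to 0.47 at the 95th, while that of H3K9me2 ran from -0.18 to 0.17. Across pairs the WT means of the marks had a Pearson correlation of 0.08 over 107252 pairs, and the KO means one of 0.02. At 200 or more input reads in the peak these were 0.17 and 0.24. The points share libraries, inputs and regions, and no p is given. In whole crypts, fewer cells with a mark and a lower level per cell cannot be told apart. Peaks in the same region differed from each other: in the 7923 regions with at least 5 tested pairs, the SD of H3K9me3 among the peaks of a region was 0.27, the SD of region means was 0.12, and the median range within a region was 0.77.

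**Figure D1:**
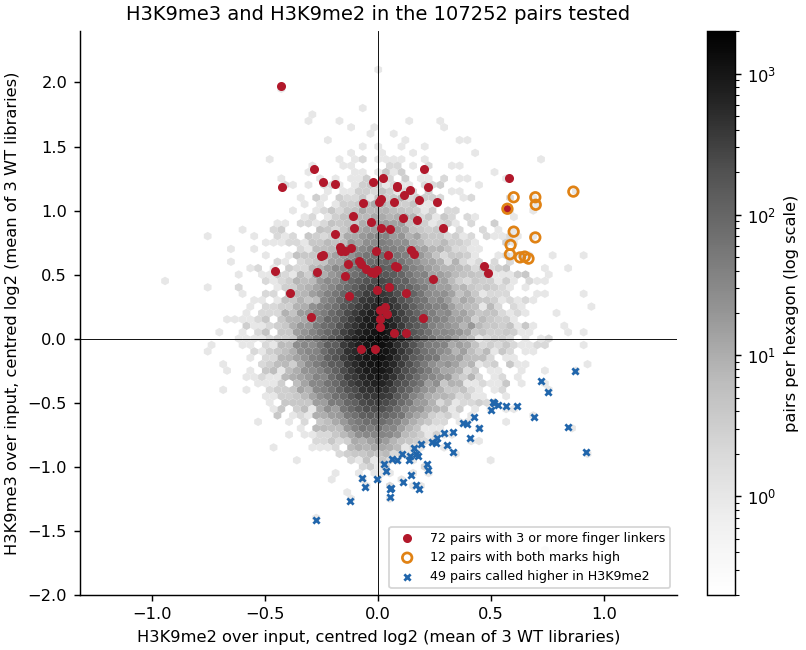
Each hexagon counts tested pairs by the WT mean of H3K9me2 (x axis) and of H3K9me3 (y axis), both as centred log2 ratio over input. The 72 pairs whose peak holds 3 or more zinc finger linkers (red) lie mostly above 0.5 in H3K9me3 and close to 0 in H3K9me2, the 12 pairs with both marks high (orange rings) lie at the upper right, and the 49 pairs called higher in H3K9me2 (blue crosses) lie along the lower edge.

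Much of this spread was of the size of counting error. In peaks with 20 to 29 input reads the SD of the WT mean H3K9me3 ratio was 0.31, and the counting error computed from the reads alone was 0.33. In the 1574 pairs with 200 or more input reads the SD was 0.29 and the counting error 0.10. The correlation of H3K9me3 between a WT and a KO library, which have separate inputs, ran from -0.24 to -0.19 in the shallowest peaks and from 0.61 to 0.67 in the deepest, while WT libraries correlated with each other at 0.39 to 0.44 and at 0.85 to 0.88. For H3K9me2 the SD over the 2116 regions with 1000 or more input reads was 0.06 against a counting error of 0.04. Regions with 20 to 49 input reads had an SD of 0.25 and a counting error of 0.27.

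**Figure D2:**
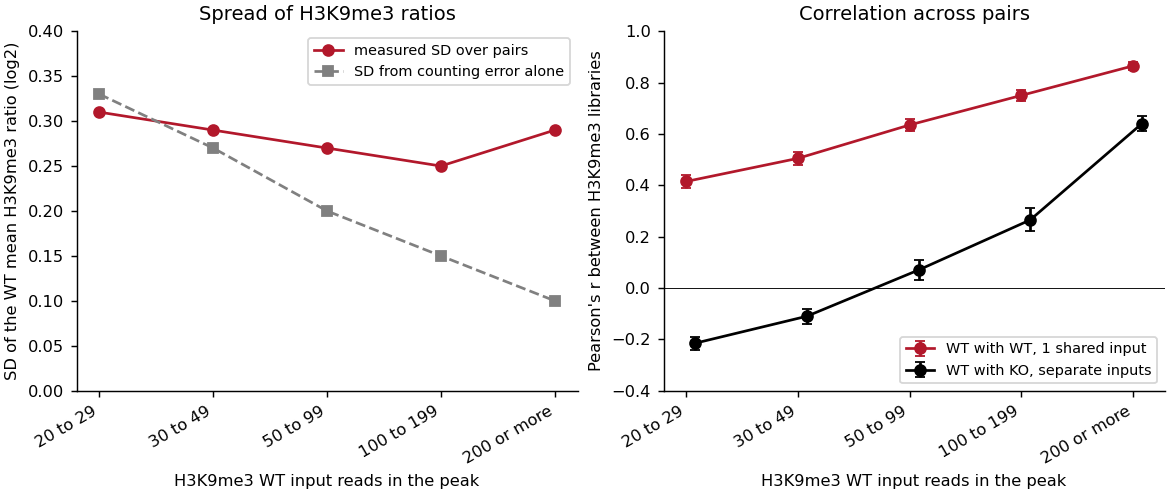
Left, SD over pairs of the WT mean H3K9me3 ratio (red) and the SD that counting error alone would give (grey), by reads in the WT input of the peak. Right, range of Pearson's r between H3K9me3 libraries, from pairs of WT libraries (red) and from WT with KO libraries (black). At 200 or more input reads the measured SD was 0.29 against 0.10 from counting, and WT with KO libraries correlated at 0.61 to 0.67.

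A mark was called high in a pair where its ratio was at least 0.5 in all 3 WT libraries. By this description H3K9me3 alone was high in 2087 pairs (1.95% of those tested), H3K9me2 alone in 46 (0.0429%), both in 12 (0.0112%) and neither in 105107. In all, H3K9me3 was high in 2099 pairs (1.96%) and H3K9me2 in 58 (0.0541%). H3K9me3 alone was high in 3392 pairs without H3K9me3 replicate 2. H3K9me2 alone was high in 118, 100 and 104 pairs, and both marks in 21, 19 and 19, without H3K9me2 replicate 1, 2 and 3. The 2087 pairs had a median H3K9me3 ratio of 0.75 ± 0.04 (SD, n = 3 WT libraries) and a median H3K9me2 ratio of 0.02 ± 0.01. The 46 pairs had a median H3K9me2 ratio of 0.67 ± 0.04 and a median H3K9me3 ratio of 0.11 ± 0.05. The KO libraries took no part in setting the classes, but their reads took part in peak calling. In them H3K9me3 was high in all 3 libraries in 226 of the 2087 pairs (10.8%). In the class neither this held for 2145 of the 105107 pairs (2.04%). H3K9me2 was high in all 3 KO libraries in 6 of the 46 pairs (13%), compared with 163 pairs (0.155%) of the class neither. Most pairs chosen in WT were therefore not high again in KO libraries over another input. Of H3K9me3-high pairs, the share that was also high in all KO libraries was 7.06% at 20 to 29 input reads and 39.7% at 200 or more.

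The direct comparison called 370 pairs higher in H3K9me3 than in H3K9me2 and 49 pairs higher in H3K9me2 (limma, Benjamini-Hochberg adjusted p under 0.05, a difference of at least 1 and no overlap between the 3 libraries of each mark). These made up 0.345% and 0.0457% of the 107252 pairs tested. Among pairs past the p threshold, the members nearest the size limit had a difference of 1.001 just inside and 0.9992 just outside. The edgeR interaction, which counts the inputs as libraries, called 75 pairs higher in H3K9me3 (0.0699%) and 0 higher in H3K9me2 by the same rule. At an unadjusted p under 0.05 this model placed 3654 pairs higher in H3K9me3 and 1705 higher in H3K9me2. Together these were 5359 of the 107252 pairs tested, close to the share that a threshold of 0.05 gives without any difference. The edgeR model passed 69 of the 370 limma calls for H3K9me3 and 0 of the 49 for H3K9me2. Of the 370, 115 lay in peaks with 20 to 29 input reads, where edgeR called 5 pairs, and 28 in peaks with 200 or more, where edgeR called 21. When ratios were divided by all reads in peaks in place of centring on the median, the median difference over all pairs went from -0.03 to -0.15, and limma called 174 pairs higher in H3K9me3 and 128 higher in H3K9me2, a share of 57.6% for H3K9me3 against 88.3% in the main comparison. Without 1 library the number higher in H3K9me3 was 345 to 439. The number higher in H3K9me2 was 130, 138 and 110 without H3K9me3 replicate 1, 2 and 3, and 23, 18 and 26 without H3K9me2 replicate 1, 2 and 3. With the KO input of each mark in place of its WT input, the numbers were 674 and 84.

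The 75 pairs of the edgeR model held 74 peaks in 73 regions. Their H3K9me3 ratio had a median of 1.18 ± 0.02 (SD, n = 3) in WT libraries, and their H3K9me2 ratio one of -0.07 ± 0.01. In KO libraries the medians were 0.63 ± 0.02 for H3K9me3 and 0.01 ± 0.03 for H3K9me2, and all 3 H3K9me3 values lay above all 3 H3K9me2 values in 62 of 75 pairs (82.7%) against 22.3% of all tested pairs. The peaks were wide, with a median of 6900 bp and 110 input reads, and rich in repeats: 50 of the 74 peaks (67.6%) were at least 50% repeat, compared with 32% of all tested peaks. A zinc finger linker lay in 13 of the 75 pairs (17.3%), against 0.402% of all tested pairs. A gene of the deposited table overlapped the peak in 23 of the 75 pairs (30.7%), close to the 28.7% of all tested pairs. The peak lay wholly inside the H3K9me2 region in 21 of the 75 pairs (28%), against 83.4% of all tested pairs, so that the values of the marks often come from stretches that overlap only in part. In those 21 pairs the median ratios were 1.18 for H3K9me3 and -0.04 for H3K9me2.

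Among pairs at genes with established symbols, several of the largest differences toward H3K9me3 lay at zinc finger genes, which encode sequence-specific DNA-binding proteins. The peak at Zfp729b (chr13:67585351-67600500), which covers coding exons and holds 12 linkers, had H3K9me3 ratios of 1.19, 1.35 and 1.44 in WT replicates 1 to 3 and H3K9me2 ratios of -0.44, -0.21 and -0.20. In KO libraries it had 1.29, 1.37 and 1.28 for H3K9me3 and -0.01, 0.04 and 0.19 for H3K9me2. The values of the marks did not overlap in either genotype, and the WT difference was 1.61 ± 0.12 (SE), with an adjusted p of 0.00142 by limma and 0.000918 by edgeR. Its neighbor on chromosome 13 at Zfp85os, a transcript antisense to Zfp85 (chr13:67738951-67750800), had H3K9me3 ratios of 1.01, 1.25 and 1.29 and H3K9me2 ratios of -0.32, -0.39 and -0.56. The difference of 1.61 ± 0.12 passed both models (adjusted p = 0.00142 by limma and 0.00848 by edgeR), and in KO libraries it was 0.47. Zfp458, in the same cluster (chr13:67241551-67266750), had 1.01, 1.33 and 1.28 for H3K9me3 and -0.19, -0.31 and -0.07 for H3K9me2. The difference was 1.40 ± 0.12 and passed limma at an adjusted p of 0.00191 and edgeR at 0.041, and in KO libraries it was 0.34. With the KO input in place of the WT input, the WT differences at Zfp85os and Zfp458 became 0.90 and 0.56, and at Zfp458 0.98 with both inputs summed, all under the limit of 1.

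Zfp110 on chromosome 7 (chr7:12836401-12859650), a zinc finger gene whose peak holds no linker match, had H3K9me3 ratios of 1.51, 1.33 and 1.43 and H3K9me2 ratios of -0.21, -0.19 and 0.09. The difference was 1.53 ± 0.12 (adjusted p = 0.00142 by limma, 0.00756 by edgeR), and 1.18 in KO libraries. The H3K9me2 region covered only part of each of these peaks, 4.95% at Zfp729b, 16.5% at Zfp85os, 13.1% at Zfp458 and 9.03% at Zfp110, so that the values of the marks come largely from different stretches. The widest difference of all named pairs over the WT input, 2.40 ± 0.34, belonged to a peak of 30300 bp with 17 linkers (chr17:17028151-17058450). The deposited table assigns it to Chd1, a chromatin remodeler gene, but GENCODE vM21 ends Chd1 1256 kb away and starts the zinc finger gene Zfp960 5.7 kb beyond the peak. The region covered 12.9% of this peak. Its H3K9me3 ratios were 1.55 and 1.48 in WT replicates 1 and 2 and 2.89 in replicate 3, and its H3K9me2 ratios were -0.07, -0.60 and -0.62. Replicate 3 stood far above the others, and the pair passed limma (adjusted p = 0.00699) but not edgeR (adjusted p = 0.32). With the KO input the WT difference was 1.38, below the 1.47 of Zfp110, and in KO libraries it was 1.03.

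The other named pairs higher in H3K9me3 rested on fewer reads and did not keep the difference in KO libraries. At Pdpn, which encodes the membrane glycoprotein podoplanin, an intronic peak with 25 input reads (chr4:143291851-143294100) had H3K9me3 ratios of 1.63, 1.25 and 1.47 and H3K9me2 ratios of -0.06, -0.19 and -0.09. The WT difference was 1.56 ± 0.12 (limma adjusted p = 0.00142, edgeR adjusted p = 0.31) and the KO difference -0.12, and the WT difference was 0.14 with the KO input and 0.76 with summed inputs. At Zfp618 an intronic peak with 89.3% repeat (chr4:63044401-63048000) had H3K9me3 ratios of 0.72, 0.71 and 0.94 and H3K9me2 ratios of -0.72, -0.83 and -0.71. That difference of 1.54 ± 0.10 in WT (limma adjusted p = 0.00135, edgeR adjusted p = 0.0645) stood against -0.40 in KO. The WT difference was 1.03 with the KO input and 1.29 with summed inputs, both still called by limma. At Apbb1ip, the gene of an adaptor in integrin activation, an intronic peak (chr2:22794151-22797150) had 1.18, 1.19 and 0.95 for H3K9me3 and -0.47, -0.28 and -0.26 for H3K9me2. Its difference was 1.44 ± 0.11 in WT (limma adjusted p = 0.00142, edgeR adjusted p = 0.299) and -0.15 in KO, and the WT difference was 0.55 with the KO input and 0.99 with summed inputs. The H3K9me2 region covered 12.5% of the peak at Zfp618 and 10% of the peak at Apbb1ip, while the Pdpn peak lay wholly inside its region.

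Among the genes of the 75 pairs called by edgeR, named here after their values were seen, Zfp938, Zfp945, Zfp37, Zfp119a and Zfp65 also had H3K9me3 ratios above those of H3K9me2. Their mean WT H3K9me2 ratios ran from -0.19 at Zfp65 to 0.01 at Zfp945, where 0 is the level of the median H3K9me2 region, and 17.7% to 28.1% of each peak lay inside its region. Zfp938 (chr10:82206451-82238700, 749 input reads) had H3K9me3 ratios of 0.88, 1.03 and 0.96 in WT and 0.87, 0.84 and 0.88 in KO, and H3K9me2 ratios between -0.21 and -0.02 in all 6 libraries. Zfp37 (chr4:62186701-62196300) had 1.06, 1.10 and 1.04 in WT and 0.93, 0.99 and 0.87 in KO, with H3K9me2 between -0.27 and 0.10. In both, every H3K9me3 value lay above every H3K9me2 value. The differences were 1.07 ± 0.10 at Zfp938 (edgeR adjusted p = 0.00756) and 1.06 ± 0.10 at Zfp37 (edgeR adjusted p = 0.0148). Outside the zinc finger genes, a peak over the start of Reg1, which encodes a secreted lectin of gut and pancreas (chr6:78419551-78423300, 87.2% repeat), had H3K9me3 ratios of 1.13, 0.99 and 1.12 in WT and 0.08, 0.39 and 0.10 in KO. Its H3K9me2 ratios were -0.31, -0.33 and -0.18 in WT, and the WT difference was 1.35 ± 0.10 (edgeR adjusted p = 0.00574), or 0.74 with the KO input. At Zfp65 the difference of 1.00 ± 0.12 fell under the limit with the KO input (0.75), with summed inputs (0.88) and without H3K9me2 replicate 2 or 3 or H3K9me3 replicate 3 (0.98, 0.96 and 0.92). The vomeronasal receptor pseudogene Vmn1r-ps25 (chr6:89695501-89699700) had 1.29, 1.14 and 1.23 in WT and 0.74, 0.70 and 0.69 in KO for H3K9me3, and H3K9me2 ratios from -0.24 to -0.04.

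**Figure D3:**
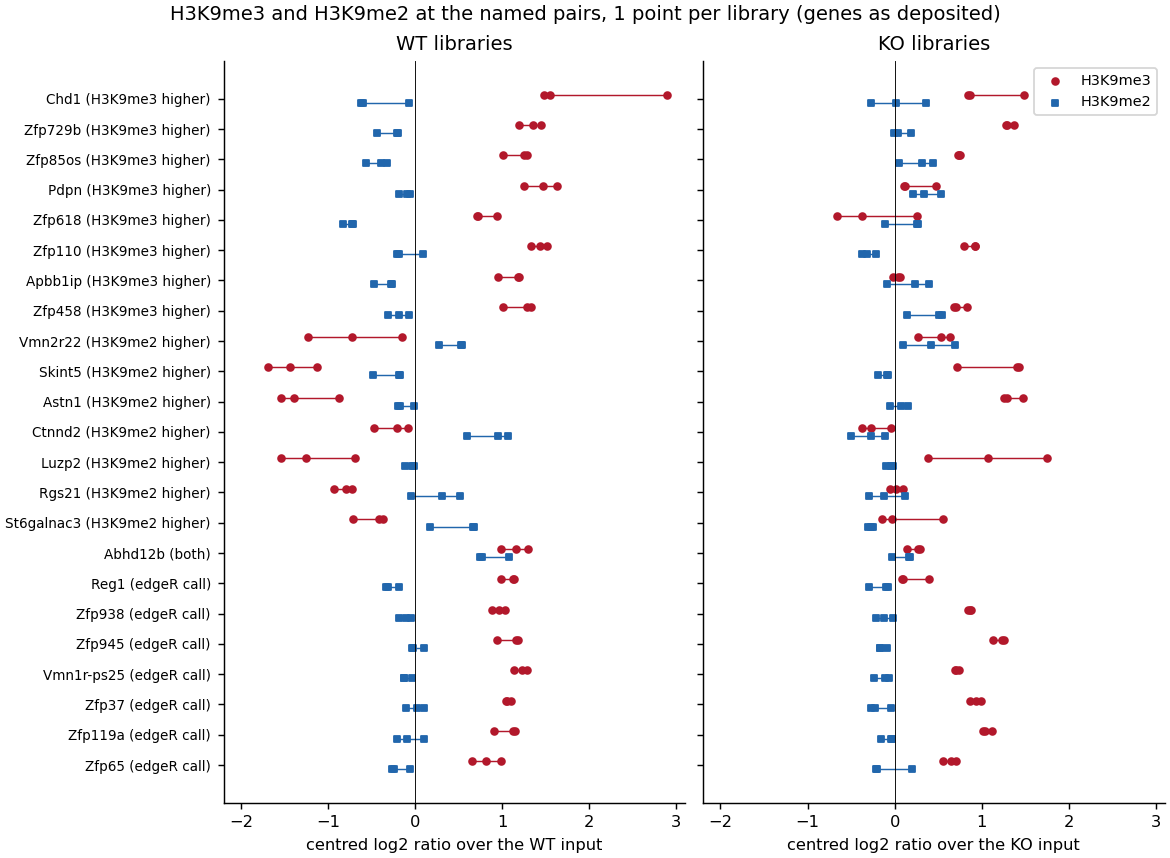
Centred log2 ratio of H3K9me3 (red circles) and H3K9me2 (blue squares) at each named pair, with 1 point per library and lines over the range, in WT (left) and KO libraries (right). At the zinc finger genes from Zfp729b to Zfp65 other than Zfp618, H3K9me3 lay above H3K9me2 in both genotypes, while the pairs called higher in H3K9me2 in WT were not so in KO.

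The linker count uses the sequence inside each peak, and so depends on the width of the peak, which was called on H3K9me3 signal. The limit of 3 was set after values were seen. The 72 pairs whose peak held 3 or more linkers had median H3K9me3 ratios of 0.64, 0.73 and 0.65 in WT replicates 1 to 3 and of 0.72, 0.66 and 0.63 in KO replicates 1 to 3. Their median H3K9me2 ratios were 0.05, -0.01 and -0.02 in WT and 0.04, 0.07 and 0.09 in KO. H3K9me3 was high in all 3 WT libraries in 39 of the 72 pairs (54.2%), against 1.96% of all tested pairs, and in all 6 libraries in 34. All 3 WT values of H3K9me3 lay above all 3 of H3K9me2 in 59 pairs (81.9%), and all 3 KO values in 58 (80.6%), compared with 18.6% and 22.2% of the 106821 pairs without a linker. Limma called 17 and edgeR 12 of the 72 pairs higher in H3K9me3, against 0.345% and 0.0699% of all tested pairs. The 359 pairs with 1 or 2 linkers had a median of 0.03 in WT.

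These peaks were wider and deeper than most, with a median width of 11925 bp and 231.5 input reads. Among pairs with 200 or more input reads, the 45 with 3 or more linkers had a median WT H3K9me3 ratio of 0.87, with a range from 0.05 to 1.97, and the 1494 without a linker had a median of 0.11, with quartiles at -0.03 and 0.32. At this depth H3K9me3 was high in 33 of the 45 pairs (73.3%) and in 6.16% of the 1494. All 3 H3K9me3 values lay above all 3 H3K9me2 values in 95.6% of the 45 in WT and 93.3% in KO, compared with 41.4% and 38% of the 1494. All 17 limma and 12 edgeR calls of the 72 pairs lay at this depth, where pairs without a linker held 11 and 9. The peak lay wholly inside the H3K9me2 region in 10 of the 72 pairs, with medians of 0.41 for H3K9me3 and 0.08 for H3K9me2, and there all 3 H3K9me3 values lay above all 3 H3K9me2 values in 4 pairs in WT and in 8 in KO. A zinc finger gene with an established symbol in GENCODE vM21 overlapped 22 of the 72. On chromosome 13, 19 of these pairs lay within 6.13 Mb (chr13:61624801-67750800) with a median H3K9me3 ratio of 0.58, and the other tested pairs of that interval had a median of 0.09. Chromosome 7 held 14 and chromosome 17 held 12, the latter with a median of 1.06. Zinc finger genes of a cluster are close copies of each other, and reads that map to several copies were removed by the mapping quality limit, so that values at single genes of a cluster are uncertain to that extent.

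**Figure D4:**
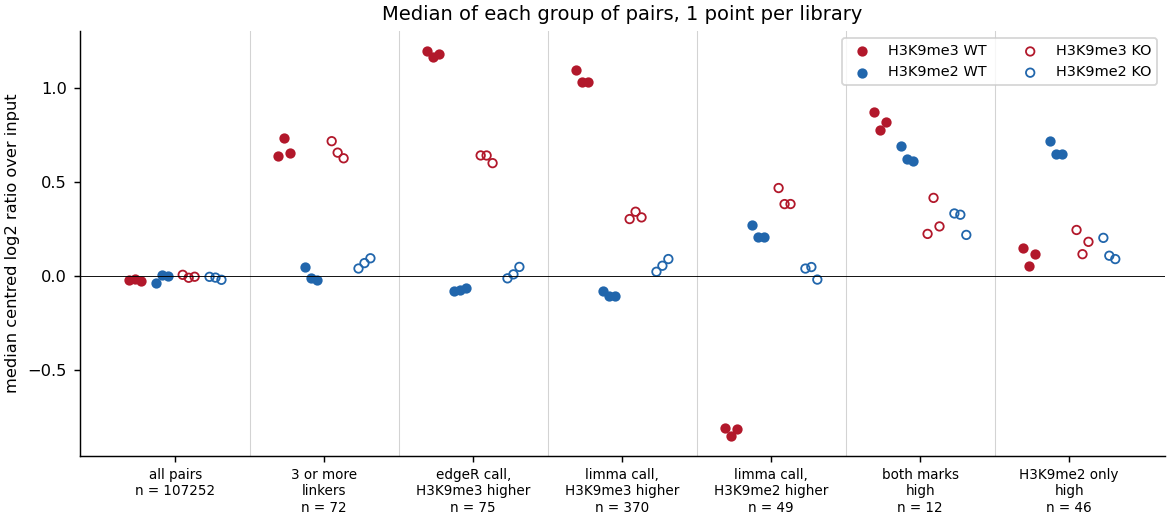
Median centred log2 ratio of each group of pairs, with 1 point per library (filled, WT; open, KO; red, H3K9me3; blue, H3K9me2). Pairs with 3 or more linkers had H3K9me3 medians from 0.63 to 0.73 in all 6 libraries, whereas the pairs called higher in H3K9me2 by limma had H3K9me3 medians of -0.85 to -0.81 in WT and 0.38 to 0.47 in KO. Apart from all pairs and the linker group, the groups were chosen on the WT values shown. The limit of 3 linkers was set after values were seen.

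The 49 pairs called higher in H3K9me2 by limma were called mainly for low H3K9me3. Their median H3K9me3 ratio was -0.82 ± 0.02 (SD, n = 3) in WT and 0.41 ± 0.05 in KO, and their median H3K9me2 ratio was 0.23 ± 0.04 in WT and 0.02 ± 0.04 in KO. The peaks were narrow, with a median of 900 bp and 32 input reads, and H3K9me3 was above H3K9me2 in the mean of KO libraries in 42 of the 49 (85.7%), against 49.8% of all tested pairs. At Astn1, which encodes the neuronal adhesion protein astrotactin, an intronic peak of 600 bp had 24 reads in the WT input and 7 in the KO input. Its H3K9me3 reads were 10, 9 and 16 in WT, and its ratios were -1.54, -1.39 and -0.87 in WT and 1.47, 1.29 and 1.26 in KO. Its H3K9me2 ratios stayed between -0.20 and 0.15 in all 6 libraries, and the WT difference was -1.14 ± 0.23 (limma adjusted p = 0.0207, edgeR adjusted p = 0.793).

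The same turn was seen at Skint5, of a family of epithelial immunoglobulin-like genes, and at Luzp2. Skint5 had H3K9me3 ratios of -1.44, -1.13 and -1.69 in WT and 1.40, 0.72 and 1.43 in KO, with 20 WT and 5 KO input reads. Luzp2 had -1.54, -1.25 and -0.69 in WT and 1.75, 0.38 and 1.07 in KO, with 24 WT and 8 KO input reads. With the KO input in place of the WT input, the WT differences became 0.70 at Skint5 and 0.32 at both Astn1 and Luzp2. All 3 pairs also lost the call when any 1 H3K9me2 library was left out (limma adjusted p from 0.103 to 0.169), and Luzp2 also without H3K9me3 replicate 1 (-0.91).

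In the other pairs of this kind described here the mean H3K9me2 ratio in WT was above 0, from 0.26 at Rgs21 to 0.87 at Ctnnd2. At Ctnnd2, which encodes the neuronal protein delta-catenin, the intronic pair (chr15:30637951-30641100) had H3K9me2 ratios of 1.07, 0.95 and 0.60 and H3K9me3 ratios of -0.08, -0.21 and -0.47. The H3K9me2 region there had 22 WT input reads, and its KO ratios were -0.27, -0.11 and -0.50. The difference was -1.13 ± 0.15 (limma adjusted p = 0.00564, edgeR adjusted p = 0.681). St6galnac3, a sialyltransferase gene, had H3K9me2 ratios of 0.68, 0.17 and 0.66 and H3K9me3 ratios of -0.37, -0.41 and -0.71. The vomeronasal receptor gene Vmn2r22 had 0.53, 0.27 and 0.54 against -0.15, -1.23 and -0.72, and Rgs21, a regulator of G protein signaling, -0.05, 0.51 and 0.31 against -0.93, -0.72 and -0.79. Their differences ran from -1.15 to -1.00, and none passed edgeR (adjusted p from 0.583 to 0.986). With the KO input the 4 WT differences became -0.28 at Ctnnd2, -0.32 at St6galnac3, -0.29 at Vmn2r22 and -0.08 at Rgs21, none called by limma. Of these, the call at Ctnnd2 alone held without each library in turn. The size fell below 1 at Vmn2r22 without H3K9me3 replicate 2 (-0.88) and at St6galnac3 without H3K9me3 replicate 3 (-0.90). The p threshold was missed at Vmn2r22 without any 1 H3K9me2 library (limma adjusted p from 0.0667 to 0.105), at Rgs21 without H3K9me2 replicate 2 or 3 (0.0605 and 0.0554) and at St6galnac3 without H3K9me2 replicate 1 or 3 (0.0616 and 0.0544). In KO libraries the differences were 0.06 at Ctnnd2, 0.40 at St6galnac3, 0.07 at Vmn2r22 and 0.12 at Rgs21.

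Both marks were high in 12 pairs, in 10 regions, and 1 of these overlapped a gene with an established symbol. At Abhd12b, a gene of the serine hydrolase family (chr12:70182751-70186200), H3K9me3 ratios were 1.30, 0.99 and 1.16 and H3K9me2 ratios 0.74, 0.77 and 1.08. The marks differed by 0.29 ± 0.14 (limma adjusted p = 0.196), and with the KO input by 0.58 (limma adjusted p = 0.0261). In KO libraries the ratios were 0.29, 0.14 and 0.27 for H3K9me3 and 0.16, 0.18 and -0.03 for H3K9me2, all below every WT value. The regions of this class were short, with a median of 5250 bp and 29.5 input reads. The peak lay wholly inside the region in 5 of the 12 pairs (41.7%), against 83.4% of all tested pairs. At Abhd12b the region covered 30.4% of the peak. The values of the marks therefore often come from stretches that overlap only in part. Over the 12 pairs the KO medians were 0.30 ± 0.10 for H3K9me3 and 0.29 ± 0.06 for H3K9me2.

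A pair on chromosome 19, named after its values were seen, was high in both marks in WT and stayed close to that in KO. The peak at the predicted gene Gm29231 (chr19:9605101-9610650) held 7 linkers and 96 input reads, and had WT means of 1.01 for H3K9me3 and 0.57 for H3K9me2 and KO means of 1.13 and 0.67. No pair was high in both marks in all 12 libraries, and 5 pairs had means of at least 0.5 for both marks in both genotypes. H3K9me2 was high in all 6 libraries in 7 pairs, which lay in 4 regions and overlapped no gene in the deposited table. One of these regions, on chromosome 8 (chr8:55534051-55544550), was paired with 3 of the 7 peaks, and had H3K9me2 means of 0.63 in WT and 0.91 in KO.

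H3K9me3 was high in all 6 libraries in 229 pairs (0.214% of those tested). Their medians were 0.95 ± 0.04 in WT and 0.75 ± 0.04 in KO for H3K9me3, and 0.03 ± 0.02 and 0.07 ± 0.02 for H3K9me2. The peaks had a median width of 4950 bp, 63% repeat and 84 input reads. A linker lay in 37 of them (16.2%), against 0.402% of all tested pairs, and a listed zinc finger gene overlapped 18, where the list made up 0.283% of tested pairs. Chromosome 7 held 23 such pairs of 5681 tested, chromosome 13 held 20 of 4342 and chromosome 17 held 17 of 3840, while chromosome 1 held 12 of 10727.

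Repeat content went with H3K9me3 in WT. From peaks with less than 20% repeat to peaks with 80% or more, the median WT H3K9me3 ratio went from -0.11 to 0.07 and the share of pairs with high H3K9me3 from 0.496% to 4.57%. In KO libraries the median of H3K9me3 was -0.04 in the least repetitive peaks and lay between -0.01 and 0.01 in all other bins. The share of pairs high in all 6 libraries went from 0.0275% to 0.488%. The WT medians of H3K9me2 lay between -0.01 and 0.00 in all 5 bins, but this value is an average over the whole region, which is far wider than the peak on which repeats were counted. The median number of input reads was between 37 and 46 in every bin. Pairs with H3K9me3 alone high had a median repeat share of 61% and an observed over expected CpG ratio of 0.20, compared with 33.6% and 0.13 over all pairs.

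The gene lists, which cover pairs whose peak overlaps a gene of the list in the deposited table, had their largest share of calls at the zinc finger genes. Of the 304 pairs at 56 zinc finger genes, limma called 15 (4.93%) higher in H3K9me3 and 0 higher in H3K9me2, against 0.345% and 0.0457% over all pairs. The edgeR model called 9 and 0, against 0.0699% and 0% over all pairs. The list's WT medians were 0.12, 0.09 and 0.08 for H3K9me3 and -0.04, -0.01 and -0.01 for H3K9me2. H3K9me3 was high in 25 pairs (8.22%), against 1.96% of all tested pairs. The median difference of the list was 0.08 (-0.03 over all pairs), and 0.01 in KO libraries (0.00 over all pairs). In WT libraries over the KO input it was -0.02 (-0.03 over all pairs), so that its sign changed with the input. Limma still called 10 pairs with that input, and the part of the input was not tested. Zinc finger genes differed from each other. The 98 pairs at Zfp804b and the 53 at Zfp521 had median WT ratios of -0.04 and 0.02 for H3K9me3 and of -0.02 for H3K9me2 in both, and held 0 limma calls, so that they lay at the level of the median peak and region.

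Long neuronal genes held 6570 pairs at 53 genes, of which 3 (0.0457%) were called higher in H3K9me3 and 0 in H3K9me2. Lsamp, a neural adhesion gene, had 401 pairs with median WT ratios of -0.12 for H3K9me3 and -0.03 for H3K9me2. Lrp1b, a gene of the LDL receptor family, had 373 pairs with medians of -0.10 and -0.05 and 1 call for H3K9me3, with single H3K9me3 peaks from -0.91 to 1.09. Olfactory receptor genes, silent outside the nose, held 697 pairs at 413 genes with median WT ratios of -0.09 and -0.01, and 1 call (0.143%) for H3K9me3. Vomeronasal and taste receptor genes held 386 pairs with medians of -0.02 and -0.03 and 1 call in each direction (0.259%). Over all tested pairs the shares were 0.345% and 0.0457%. The counts at the olfactory, vomeronasal and taste receptor genes are too low to be a result about those genes. At the long neuronal genes the share called higher in H3K9me3 lay below that over all pairs. H3K9me3 was high in 0.533% of their pairs, against 1.96% of all tested pairs, and the cause was not tested.

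The remaining lists held at most 262 pairs each, in which about 0 or 1 call would be found at the shares over all tested pairs (0.345% and 0.0457%). Solute carriers had 1 call for H3K9me3 in 200 pairs, and the serpins and other clustered secreted genes had 1 call for H3K9me2, at Skint5, in 262 pairs. No limma call was made at the clustered protocadherins (18 pairs, all counted at Pcdha1), imprinted genes (73), germline and meiosis genes (19), homeobox and other developmental factors (118), innate immune genes (145), xenobiotic and retinol enzymes (88), immunoglobulin and T cell receptor segments (48), or keratins and keratin-associated genes (9). The edgeR model called none of their pairs either. The highest list median of the WT mean of H3K9me3 was that of the protocadherins (0.23). Their medians in WT replicates 1 to 3 were 0.30, 0.22 and 0.15 for H3K9me3 and 0.06, 0.07 and 0.00 for H3K9me2. In replicate 3 the germline and meiosis genes had a higher H3K9me3 median, of 0.28. At Tlr4, an innate immune receptor gene with 20 pairs, the median WT ratios were 0.10 for H3K9me3 and -0.08 for H3K9me2. Over the genes with most pairs of each list, the median WT ratio ran from -0.24 at Olfr1033 to 0.23 at Pcdha1 for H3K9me3.

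**Figure D5:**
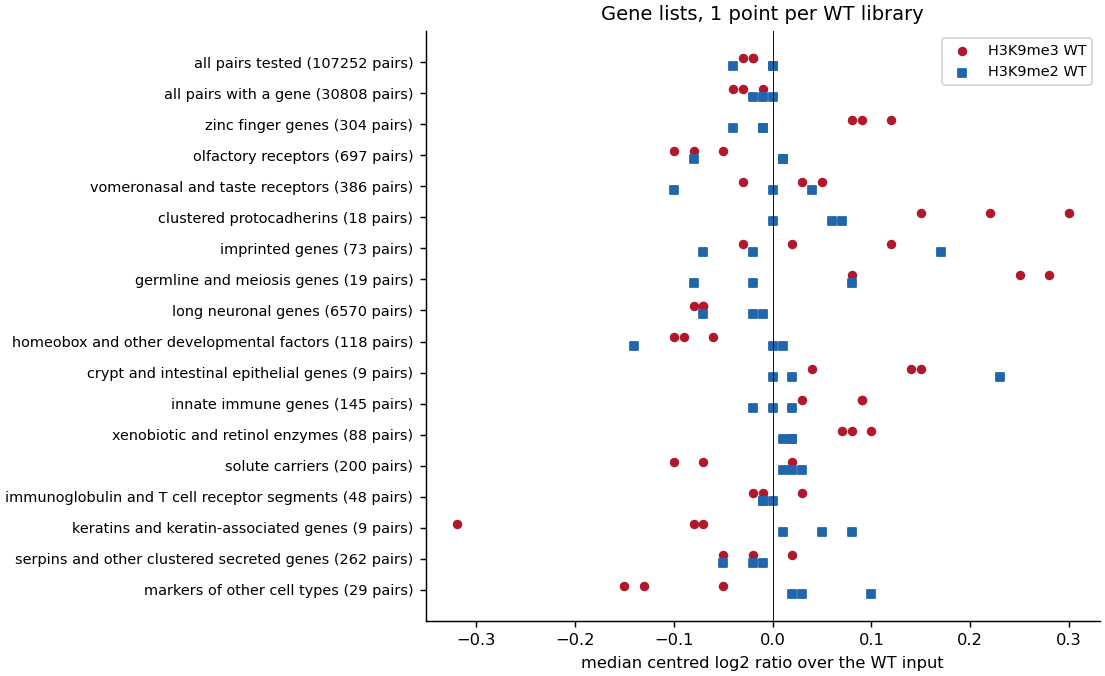
Median centred log2 ratio of H3K9me3 (red circles) and H3K9me2 (blue squares) for each gene list, with 1 point per WT library and the number of pairs in brackets. The zinc finger genes had H3K9me3 medians of 0.08 to 0.12 and H3K9me2 medians of -0.04 to -0.01, and lists with few pairs, such as the 9 pairs of keratins, spread widely between libraries.

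Genes of the crypt epithelium were among several lists with few pairs, and 4263 genes had a tested pair in all. Of 59 crypt and intestinal epithelial genes, 1 gene, the tuft cell marker Dclk1, had tested pairs, with 9 pairs and median WT ratios of 0.09 for H3K9me3 and 0.07 for H3K9me2. Of 20 markers of other cell types (immune, stromal, endothelial and neural), Elavl4 and Col3a1 had tested pairs, 24 and 5, with H3K9me3 medians of -0.15 and 0.07 and H3K9me2 medians of 0.05 and -0.18. No tested pair lay at Smarcad1, at Vil1 or at any of the 37 listed writers, erasers and readers of H3K9 methylation. The chromosomes differed little, with WT medians from -0.07 to 0.08 for H3K9me3 on the autosomes, and the X and Y chromosomes held 9 and 2 tested pairs.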

How the data were processed

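ChIP with antibodies against H3K9me2 and H3K9me3 and an input were sequenced from WT and KO crypts. Per the labels and the study's methods, the authors trimmed reads with Trim Galore 0.4.4, mapped them to GRCm38 with Bowtie2 2.3.2, kept reads with a mapping quality of at least 20, removed duplicates, and called MACS peaks in SeqMonk once per mark over all ChIP libraries against both inputs. A library's reads thus took part in choosing the peaks it is measured in. H3K9me3 values were deposited as log2 read counts per peak, which the authors matched to a common distribution among ChIP libraries. H3K9me2 was deposited as a mean read signal over the MACS peaks grouped in each region. A further deposited table held read counts and FDR values of 3 H3K9me2 peaks from the authors' own comparison of genotypes, and was not used, like their H3K9me3 comparison table and the standard deviation columns.

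H3K9me2 reads were obtained as mean times number of peaks. H3K9me3 counts were rebuilt from the ranks of the log2 values, exactly for 99.4% to 99.7% of peaks and by interpolation for the highest. Levels are log2 ChIP over input, with a pseudocount of 1 read for H3K9me2, centred per library. Pairs with under 20 reads in either WT input were not tested. The main test was limma 3.58.1 (R 4.3.3; trend and robust, two-sided) with mark as the only term. The alternative was edgeR 4.0.16 (quasi-likelihood interaction of mark and ChIP, on counts). Both used Benjamini-Hochberg adjustment over all 107252 pairs. The limma fit was tested on simulated data, and the edgeR model was not. Repeats, linkers and sequences were read from the RefSeq GRCm38 genome, and genes from the deposited tables, checked against GENCODE vM21: 94.4% of tested peaks with a deposited gene overlapped it there.

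The members and gene lists were chosen with earlier results of these data known. Named genes with established symbols were the 8 pairs of largest difference in each direction among limma calls, the pairs with both marks high, and the 2 genes with most pairs per list, together with Smarcad1 and Vil1. Of the 8 pairs of largest difference toward H3K9me2, 1 is not reported here. The genes of edgeR calls and the limit of 3 linkers were chosen after values were seen. Intervals and errors from reads cover counting error only.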

Additional observations from a re-analysis of the deposited data

Results flagged for a closer look

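The difference between H3K9me3 and H3K9me2 had opposite signs in WT and KO libraries, with every library on its side, at 4 named pairs. The difference went from -1.14 in WT to 1.30 in KO at Skint5, from -1.14 to 1.28 at Astn1, from -1.10 to 1.12 at Luzp2 and from -1.00 to 0.40 at St6galnac3. The difference between the genotypes was not tested. The H3K9me3 input reads were 20 in WT and 5 in KO at Skint5, 24 and 7 at Astn1, 24 and 8 at Luzp2, and 37 and 32 at St6galnac3, where the H3K9me2 input reads were 41 and 66. H3K9me3 reads in the 6 ChIP libraries were 8 to 15 at Skint5, 9 to 23 at Astn1, 10 to 22 at Luzp2 and 27 to 39 at St6galnac3. The part of the inputs in these changes of sign was not tested.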

How the results depend on the processing

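The following settings gave counts of pairs higher in H3K9me3 and in H3K9me2, against 370 and 49, and counts of pairs with both marks, H3K9me3 alone and H3K9me2 alone high, against 12, 2087 and 46. Without a limit on size there were 7866 and 4720 calls, with a limit of 0.5 there were 4741 and 3046, and with a limit of 2 there were 3 and 0. With high set at 0.25 the classes held 152, 7875 and 557 pairs, and at 1 they held 0, 157 and 0. A pseudocount of 5 together with rebuilt H3K9me3 counts, which with the pseudocount of 1 gave 39 calls for H3K9me2, gave 14 calls for H3K9me2 and classes of 3 pairs with both marks and 23 with H3K9me2 alone. Division by all reads in peaks gave 174 and 128 calls and classes of 7 and 900 for both marks and H3K9me3 alone. Without input, as reads per kb, there were 1616 and 2 calls and classes of 38, 583 and 27, so that 99.9% of calls were higher in H3K9me3. An input minimum of 1 read gave 2290 and 164 calls and classes of 55, 5374 and 231, a minimum of 50 reads gave 118 and 3 and classes of 0, 807 and 4, and a minimum of 200 reads, chosen after seeing the data, gave 2 and 0 among 895 pairs and classes of 0, 16 and 0. These limits change how many pairs are tested.

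Requiring that 50% of the peak overlap gave 174 calls for H3K9me3 and 7 pairs with both marks, and requiring the whole peak gave 130 calls for H3K9me3 and classes of 5, 1028 and 18. With 1 value per region there were 202 and 12 calls and 791 pairs with H3K9me3 alone by the median of peaks, and 193 and 12 calls and classes of 6 and 786 for both marks and H3K9me3 alone by summed reads. Summed WT and KO inputs, chosen after seeing the data, gave 161 and 5 calls and classes of 5, 1072 and 20. The KO input, likewise, gave 674 and 84 calls and 117 pairs with H3K9me2 alone, and turned the differences at Skint5 to 0.70, at Astn1 to 0.32 and at Luzp2 to 0.32. The edgeR interaction gave 75 and 0 calls. Apart from the alternatives that change what is tested, the cause was not tested.

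Without 1 library the calls ran from 345 to 439 and from 18 to 138, and the classes from 12 to 21, from 2078 to 3392 and from 41 to 118. The equally numbered libraries of the marks correlated in their deviations at 0.19, 0.09 and 0.03, not all above the limit of 0.1 for treating the numbers as pairs, which does not settle whether they share mice. A replicate block gave 370 and 56 calls. Of 23 named pairs that were called, 23 kept the whole call, size included, under the block, 11 with summed inputs, 9 with the KO input and 15 to 22 without 1 library. Of these, 7 were named because edgeR called them, and of the other 16, named from limma calls, edgeR called 4. For pairs with 3 or more linkers the median difference stayed between 0.63 and 0.78 under the block, leaving out a library, the other inputs and edgeR, with 12 to 21 calls for H3K9me3 and 0 for H3K9me2.

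At 20 to 29 input reads, counting error of input and ChIP reads together (0.33) was as large as the spread over pairs (0.31). Calls there rest on 1 unreplicated input library. The input minimum leaves out 37884 pairs.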
